A study of Mus musculus with 8 samples.

Results

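The 10 genes described here encode the main proteins of microfibrils and elastic fibres: the fibrillins (Fbn1, Fbn2), the microfibril-associated glycoproteins (Mfap2, Mfap5), tropoelastin (Eln) and the fibulins (Fbln1, Fbln2, Fbln5, Efemp1, Efemp2). They were chosen by name as a gene family, and all 10 were found among 32780 genes with a matched transcript and passed the low-count filter that left 15097 genes to test. The series holds RNA libraries of TC1, an embryonic stem cell line from mouse with wild-type genotype, made from total RNA of undifferentiated cells at day 0 (4 libraries) and of differentiated cells at day 10 (4 libraries), the only 2 groups. The agents and cell types of the differentiated culture are not named in the labels, and no label ties the libraries to independent cultures, so the spread behind each p-value may be technical. Estimated counts per library totalled 11242568 to 15808039 at day 0 and 13525255 to 17843651 at day 10.

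Fibrillins are long, cysteine-rich glycoproteins that polymerise outside the cell into microfibrils. Microfibrils bind the latent TGF-beta complex and act as the scaffold on which tropoelastin, guided by fibulins and cross-linked by lysyl oxidases, is laid down as an elastic fibre. Blood vessel wall, lung and skin are the tissues best known for these fibres, and mesenchymal cells are the main source of their proteins.

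Transcript forms of 3 fibulins differ in coding sequence, and the segments that set these forms apart are shown because the estimated shares reported further on refer to them. All positions are on GRCm38 with GENCODE M21 transcripts, plus strand, 5′ to 3′, and capitals mark the coding bases that the other form lacks, after 18 shared bases in lower case. Exon 9 of Fbln2-201 (chr6:91259630-91259770) holds 47 codons and is skipped in Fbln2-202, the most abundant form here. Exon 5 of Efemp2-204 (chr19:5477562-5477684) holds 123 bases, or 41 codons, and is skipped in Efemp2-209. Both skipped exons are shown with 18 following bases in lower case as well. The Fbln1 forms share a start and part at exon 15 into separate coding ends, and the first 90 bases of each end are given (chr15:85251445-85251534 for Fbln1-202 and chr15:85263259-85263348 for Fbln1-201). The full separate coding ends are 352 bases in Fbln1-202, a protein of 685 residues, and 412 bases in Fbln1-201, of 705 residues.
Fbln2-201 exon 9: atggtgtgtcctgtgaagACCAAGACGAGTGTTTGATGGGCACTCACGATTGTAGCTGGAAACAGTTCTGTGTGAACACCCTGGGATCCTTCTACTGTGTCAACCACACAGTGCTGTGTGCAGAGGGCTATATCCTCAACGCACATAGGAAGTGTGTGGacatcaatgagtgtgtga
Efemp2-204 exon 5: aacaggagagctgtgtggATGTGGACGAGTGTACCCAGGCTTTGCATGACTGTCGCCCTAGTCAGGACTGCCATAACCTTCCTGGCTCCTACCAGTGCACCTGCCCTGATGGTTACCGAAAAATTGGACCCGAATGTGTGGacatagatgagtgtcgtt
Fbln1-202 coding end: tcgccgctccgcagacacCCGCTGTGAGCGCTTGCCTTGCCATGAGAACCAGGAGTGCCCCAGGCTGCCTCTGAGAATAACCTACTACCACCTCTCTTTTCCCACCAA
Fbln1-201 coding end: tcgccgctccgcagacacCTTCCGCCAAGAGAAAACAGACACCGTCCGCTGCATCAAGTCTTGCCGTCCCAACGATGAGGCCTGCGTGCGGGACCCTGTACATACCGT

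Of the 10 genes, 9 were higher at day 10 and Mfap5 was lower by edgeR's quasi-likelihood test at an adjusted p under 0.05, and the same 9 and 1 passed the test against a 2-fold change. The background is high: 82.1% of all tested genes were called in either direction, 42.7% were called higher and 39.4% lower, and 41.4% by more than 2-fold (24.1% higher and 17.3% lower). All 10 genes had day 10 libraries that did not overlap the day 0 libraries in CPM (counts scaled to the library total, adjusted by TMM), as did 77.9% of all tested genes (40.8% with day 10 above day 0 and 37.2% with day 10 below). The median log2 change of the 10 genes was 5.17, beside 0.06 over all genes tested. On TPM, the deposited level per length and library total, these medians were 4.74 and 0.45. All log2 changes on TPM were taken on TPM plus 0.1, which lowers the change of genes near that level on either day. In bulk RNA, fewer cells of a type and less RNA per cell cannot be told apart, which holds for every difference between the days given here.

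**Figure D1:**
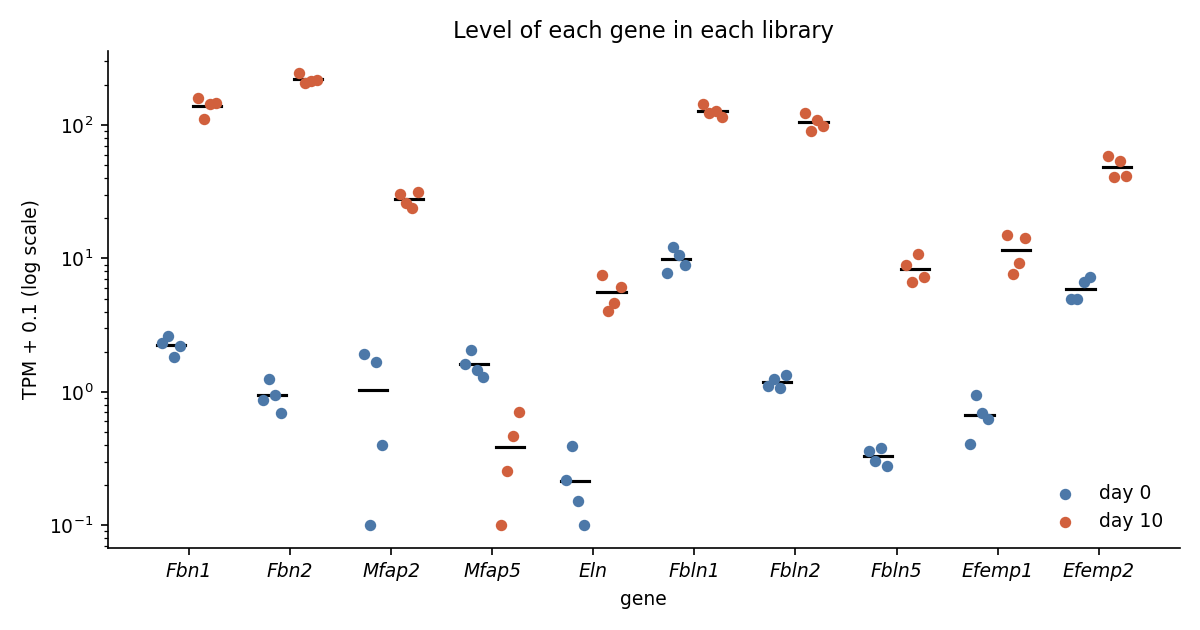
TPM plus a pseudocount of 0.1 (log axis) for each gene in each library, with day 0 in blue, day 10 in orange and a black line at the mean of 4 libraries. For 9 genes the day 10 points lie above the day 0 points, and for Mfap5 below.

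In CPM, which is not adjusted for transcript length, the fibrillins showed the highest levels of the 10 genes at day 10. Per length, the Fbn1 libraries overlapped those of Fbln1. Fbn2, the fibrillin best known from embryonic tissue, measured 4.24, 5.29, 4.80 and 3.99 CPM in day 0 libraries 1 to 4 and 921, 714, 786 and 795 CPM in day 10 libraries 1 to 4. Every day 10 library stood far above every day 0 library, and library 1 was the highest at day 10. The log2 change of Fbn2 was 7.45 ± 0.12 (SE), a 175-fold rise with an edgeR adjusted p of 8.01e-15, and 97.6% of tested genes had a lower log2 change. Fbn1, the main fibrillin of postnatal microfibrils, measured 13.9, 15.5, 11.5 and 13.7 CPM at day 0 and 757, 502, 683 and 695 CPM at day 10. Library 2 was the low one at day 10 and still lay above all of day 0. The log2 change of Fbn1 was 5.59 ± 0.15 (SE), 48.1-fold, with an edgeR adjusted p of 2.02e-11.

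Per length, the order of the fibrillins turned over between the days. Fbn1 stood above Fbn2 in every day 0 library, at 2.14 ± 0.33 against 0.843 ± 0.23 TPM (SD, n = 4). At day 10 Fbn2 stood above Fbn1 in every library, at 220 ± 16.3 against 139 ± 20.4 TPM (SD, n = 4). The mean log2 ratio of Fbn1 to Fbn2 on TPM plus 0.1 went from 1.27 ± 0.33 to -0.67 ± 0.16 (SD, n = 4), a difference of -1.94. The two-sided exact permutation test over 70 assignments gave p = 0.0286, the smallest it can give here, and 0.0429 after adjustment over 6 pairs. Part of the Fbn2 level came from short transcripts with no coding sequence, such as retained-intron forms, which held 34.5 ± 1.41% of Fbn2 TPM at day 10 but 4.37% of its counts. Fbn2-203 alone, a retained-intron form of 489 bases, took 17.04% of Fbn2 TPM on 0.726% of its counts. With protein-coding transcripts only, Fbn2 was at 144.3 ± 13.2 and Fbn1 at 139 ± 20.4 TPM at day 10 (SD, n = 4), and their ranges overlapped. The coding ratio of Fbn1 to Fbn2 on TPM plus 0.1 still fell, from 3.17 to 0.955. The difference was -1.73 on the log2 scale, with an exact permutation p adjusted to 0.0429. The fall of the ratio thus passed on both scales, whereas Fbn2 lay above Fbn1 in every day 10 library only with non-coding forms included.

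The microfibril-associated glycoproteins bind fibrillin microfibrils, and the pair moved in opposite directions. Mfap2, which encodes MAGP-1, measured 0.461, 0, 0.337 and 0.131 CPM at day 0, on 5, 0, 4 and 2 counts, and 12.4, 10.9, 10.5 and 12.5 CPM at day 10. The day 10 libraries lay close together, with a coefficient of variation of 8.78%, while the day 0 values rest on few counts. The log2 change of Mfap2 was 5.71 ± 0.37 (SE), 52.4-fold, with an edgeR adjusted p of 3.15e-09. In the 3 day 0 libraries with Mfap2 counts, 63.9% of them on average went to Mfap2-202, a form with no coding sequence, and with protein-coding transcripts only the log2 change was 7.45. With an offset for transcript length it was 4.97. Mfap5, which encodes MAGP-2, measured 1.11, 1.53, 1.26 and 1.31 CPM at day 0 and 0, 0.123, 0.073 and 0.280 CPM at day 10. The counts behind these values were 12, 22, 15 and 20 at day 0 and 0, 2, 1 and 5 at day 10, so this gene was near the detection limit after differentiation. The log2 change of Mfap5 was -3.26 ± 0.52 (SE), 9.58-fold lower, with an edgeR adjusted p of 4.26e-05. It was -4.10 without day 10 library 4, which holds most of the day 10 counts, and -2.39 on TPM plus 0.1. Only 3.15% of tested genes had a lower log2 change. About 31.5% of the Mfap5 counts at day 0 were assigned to a retained-intron form, and with protein-coding transcripts only the gene did not pass the low-count filter. The mean log2 ratio of Mfap2 to Mfap5 on TPM plus 0.1 rose by 7.91, with an exact permutation p adjusted to 0.0429, but its day 0 values ranged from -4.37 to 0.25 because of the low Mfap2 counts. Its size depended on the settings, and it passed at each of 5.0 with a pseudocount of 1, 9.89 with one of 0.01, 9.35 with protein-coding transcripts only and 6.92 without day 0 library 2.

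Eln encodes tropoelastin, the soluble precursor of the elastin core. It measured 0.276, 0.348, 0.084 and 0 CPM at day 0, on 3, 5, 1 and 0 counts, and 13.4, 6.54, 7.89 and 10.6 CPM at day 10. Eln was thus close to undetected in stem cells and present at a modest level in all day 10 libraries. The log2 change of Eln was 5.73 ± 0.46 (SE), 53.1-fold, with an edgeR adjusted p of 7.79e-08. All Eln counts of day 0 libraries 2 and 3 went to transcripts not annotated as protein-coding, and with protein-coding transcripts only the log2 change was 7.16. It was 6.37 without day 0 library 2 and 4.84 on TPM plus 0.1, an addition close to the mean Eln level of 0.115 TPM at day 0. Despite that rise, Eln remained far below the fibrillins per length, at 5.46 ± 1.55 TPM (SD, n = 4) at day 10. The ratio of Eln to Fbn1, taken on TPM plus 0.1 and averaged on the log2 scale, was 0.0850 at day 0 and 0.0391 at day 10. The difference did not pass the exact permutation test (log2 difference -1.12, adjusted p = 0.0686). That comparison depends on the few Eln counts at day 0 and on the added 0.1. With 0.01 added in place of 0.1 the difference was 0.24, the other direction, and on CPM it was -0.26. Without day 0 library 4, where Eln had 0 counts, it was -1.42 with an exact permutation p adjusted to 0.0343.

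All 5 fibulins rose. Fbln2, a large fibulin of vessel walls and of embryonic heart cushions, had the highest log2 change among them. It measured 2.58, 2.65, 2.27 and 3.73 CPM at day 0 and 265, 186, 233 and 214 CPM at day 10. The log2 change of Fbln2 was 6.29 ± 0.16 (SE), 78.5-fold, with an edgeR adjusted p of 2.07e-12, and 5.66 with a trend on gene length removed. Fbln1, a fibulin of basement membranes and matrix fibres, was already the most abundant of the 10 genes per length in stem cells. It measured 12.7, 17.4, 16.3 and 14.99 CPM at day 0 and 169, 136, 151 and 139 CPM at day 10, with no overlap. Its log2 change was 3.27 ± 0.10 (SE), 9.65-fold, with an edgeR adjusted p of 2.47e-12. Since Fbln2 rose more than Fbln1, their ratio on TPM plus 0.1 went from 0.122 to 0.820. The log2 difference was 2.75 with an exact permutation p adjusted to 0.0429, and 2.07 with a pseudocount of 1.

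Fbln5 and Efemp2, which encode fibulin-5 and fibulin-4, are the fibulins needed for elastic fibre assembly. Fbln5 measured 0.369, 0.279, 0.505 and 0.196 CPM at day 0 and 9.93, 6.67, 11.8 and 7.79 CPM at day 10. Efemp2 measured 4.98, 4.94, 6.31 and 6.81 CPM at day 0 and 40.1, 26.1, 33.2 and 28.2 CPM at day 10. Neither gene's days overlapped, and library 2 was the lowest at day 10 for both. The log2 changes were 4.75 ± 0.31 (SE) for Fbln5, with an edgeR adjusted p of 4.10e-09, and 2.46 ± 0.16 (SE) for Efemp2, with an edgeR adjusted p of 3.76e-09. Efemp2 had the smallest rise of the 9 and yet stayed above Fbln5 per length, at 48.7 ± 8.94 against 8.30 ± 1.84 TPM (SD, n = 4) at day 10. The ratio of Fbln5 to Efemp2 on TPM plus 0.1, averaged on the log2 scale, rose from 0.0562 to 0.171. The log2 difference was 1.61, with an exact permutation p adjusted to 0.0429. With a pseudocount of 1 in place of 0.1 the same difference was 0.04, because Fbln5 stood at only 0.232 TPM at day 0. Efemp1, which encodes fibulin-3, measured 0.369, 0.975, 0.505 and 0.655 CPM at day 0 and 11.2, 5.80, 8.11 and 10.8 CPM at day 10. Its log2 change was 3.78 ± 0.31 (SE), 13.8-fold, with an edgeR adjusted p of 4.39e-08. The ratio of Efemp2 to Efemp1 on TPM plus 0.1 was 9.17 at day 0 and 4.35 at day 10. The difference did not pass (log2 difference -1.07, exact permutation p adjusted to 0.0857). Without day 0 library 2, in which Efemp1 was highest, that difference was -1.34, and on CPM in place of TPM it was -1.22, each with an exact permutation p adjusted to 0.0343. With a pseudocount of 1 it was -0.09 (exact permutation p adjusted to 0.886).

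**Figure D2:**
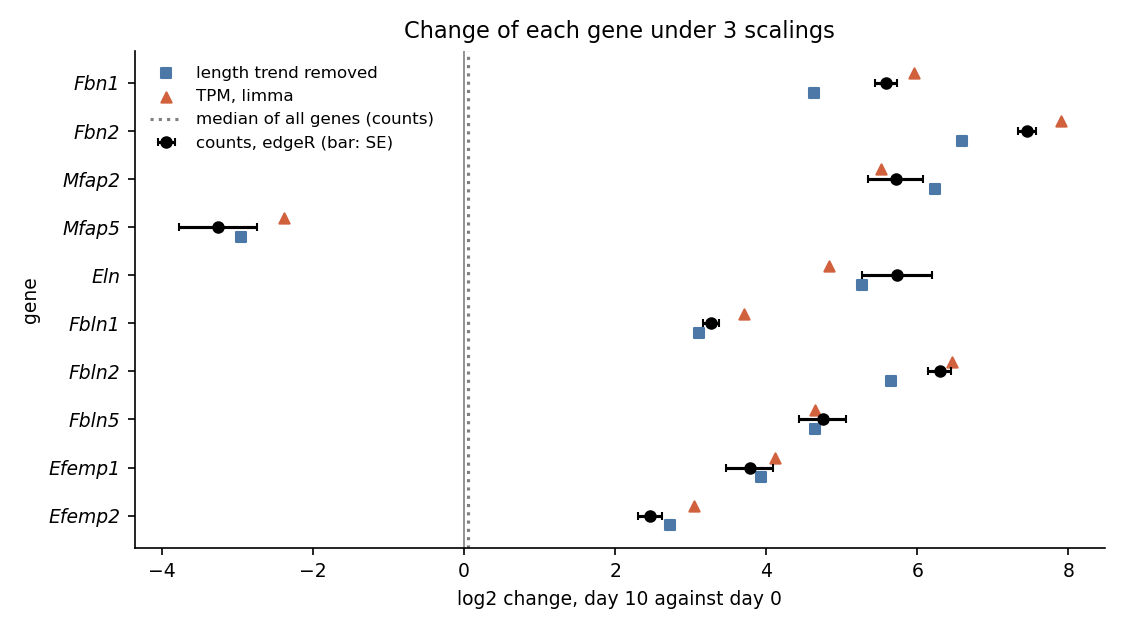
Log2 change of each gene, day 10 against day 0, on counts (black, bar = SE), with a trend on gene length removed (blue squares) and on TPM (orange triangles), and the median of all tested genes on counts as a dotted line at 0.06. Mfap5 lies below 0 and the other 9 genes above 2 on each scale; removing the length trend lowers Fbn1 to 4.63 and Fbn2 to 6.59.

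Read by level, the 10 genes formed a different order on each day. At day 0 the TPM order was Fbln1 at 9.79, Efemp2 at 5.84, Fbn1 at 2.14, Mfap5 at 1.51, Fbln2 at 1.09, Mfap2 at 0.926, Fbn2 at 0.843, Efemp1 at 0.566, Fbln5 at 0.232 and Eln at 0.115. Only Fbln1 above Efemp2, Efemp2 above Fbn1 and Efemp1 above Fbln5 were neighbours whose libraries did not overlap. At day 10 the order was Fbn2 at 220, Fbn1 at 139, Fbln1 at 127, Fbln2 at 105, Efemp2 at 48.7, Mfap2 at 27.7, Efemp1 at 11.4, Fbln5 at 8.30, Eln at 5.46 and Mfap5 at 0.283 TPM. Fbn1, Fbln1 and Fbln2 overlapped with their neighbours, as did Efemp1, Fbln5 and Eln, and the remaining steps were clear of overlap. With protein-coding transcripts only, Fbn2 and Fbn1 overlapped as well. The sum over all 10 genes was 23.1 ± 2.08 TPM at day 0 and 693 ± 72.3 TPM at day 10 (SD, n = 4).

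The make-up of that sum shifted from fibulins to fibrillins. Fbln1 and Efemp2 held 42.2% and 25.5% of the summed TPM at day 0 and 18.4% and 6.99% at day 10. Fbn2 went from 3.63% to 31.9% of the sum, and Fbn1 from 9.36% to 20.04%. With protein-coding transcripts only, the day 10 libraries ranged from 23.0 to 24.9% for Fbn2 and from 20.6 to 24.6% for Fbn1. Fbln2 went from 4.76% to 15.1%, and Mfap5 from 6.54% to 0.0421%. Eln stayed under 1% of the mean sum on both days, at 0.483% and 0.779%. These shares are descriptions, since a share of one gene lowers those of the others.

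**Figure D3:**
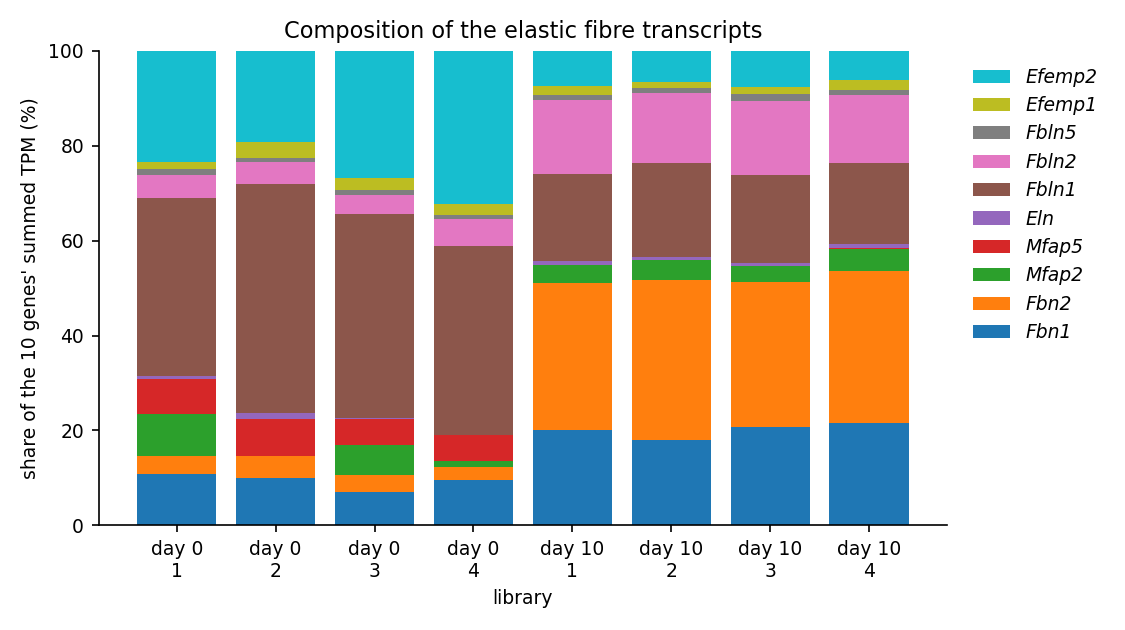
Share of each gene in the summed TPM of the 10 genes, from all transcripts (percent, stacked bars from 0 to 100), for each of the 8 libraries. Fbln1 and Efemp2 hold most of the day 0 bars (42.2% and 25.5% on average), and Fbn2 and Fbn1 the lower parts of the day 10 bars (31.9% and 20.04%).

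**Figure D4:**
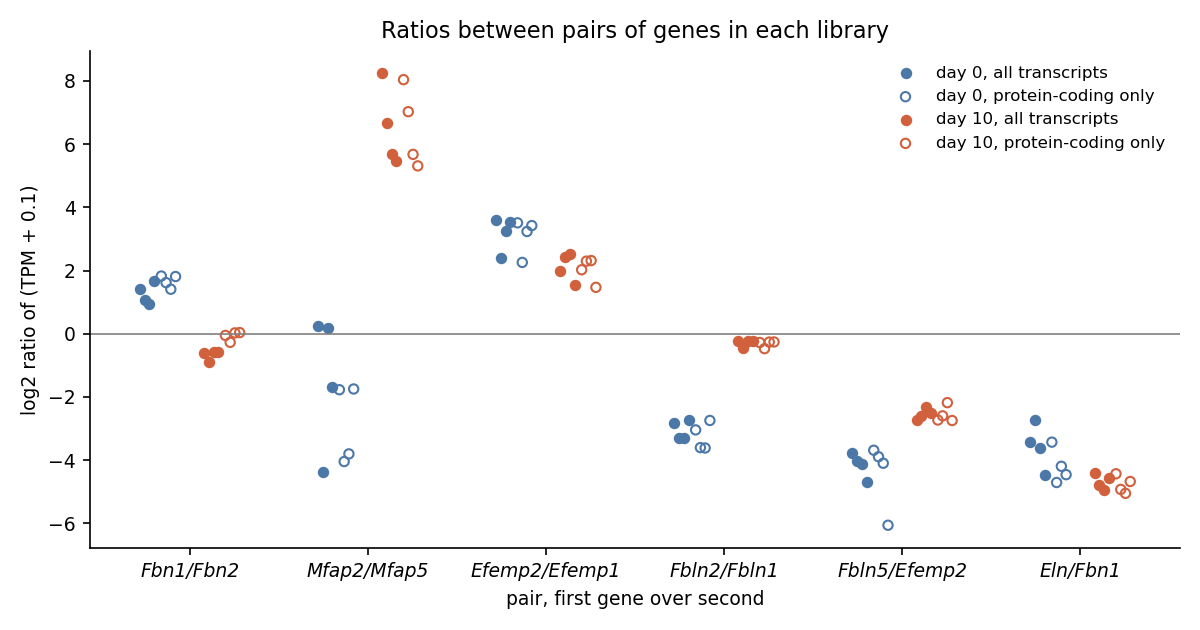
Log2 ratio of TPM plus 0.1 between the 6 pairs of genes, in each library, from all transcripts (filled) and from protein-coding transcripts only (open), with day 0 in blue and day 10 in orange. The days do not overlap for Fbn1/Fbn2, Mfap2/Mfap5, Fbln2/Fbln1 and Fbln5/Efemp2, whose ratios from all transcripts differ by -1.94, 7.91, 2.75 and 1.61.

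Within genes, the share held by the most abundant transcript was tested for the 5 members with at least 20 counts in every library, and no difference passed after adjustment. Fbln1-202 held 74.1 ± 8.82% of Fbln1 TPM at day 0 and 79.3 ± 2.48% at day 10 (SD, n = 4), a difference of 5.21 percentage points (exact permutation p adjusted to 0.393). Fbln1-201 held 24.5% and 20.7%, so both coding ends printed above were assigned reads on both days. Fbln2-202, without exon 9, held 84.2 ± 11.5% at day 0 and 94.8 ± 1.97% at day 10 (SD, n = 4), with an exact permutation p adjusted to 0.238. The exon 9 form Fbln2-201 was assigned 386 of 13627 Fbln2 counts at day 10, or 2.83%, with 0 in 1 of the 4 libraries. At day 0 it had 0 of 150 counts. Only reads that touch exon 9 or the junction that skips it can separate this form from Fbln2-202. How many of the 150 counts came from such reads is not known, so the 0 sets no upper limit on the day 0 share. The difference of the Fbln2-201 share between the days was not tested. Efemp2-204 held 59.5 ± 24.1% at day 0 and 59.5 ± 15.8% at day 10 (SD, n = 4), and Efemp2-209, which lacks exon 5, held 4.07 to 40.5% of Efemp2 TPM at day 10. Fbn1-201 held 100% and 99.3% (exact permutation p adjusted to 0.143), and Fbn2-201 held 73.8% and 65.5% (exact permutation p adjusted to 0.214). The differences of Fbn2, Fbln2 and Efemp2 changed sign between shares of TPM and shares of counts.

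The libraries of day 10 differed among themselves in a shared order. Library 2 was the lowest for 8 of the 9 risen genes, with library 3 the lowest for Mfap2, and library 1 was the highest for 7 of the 9. The summed CPM of the 10 genes was 2199 in library 1, 1595 in library 2, 1925 in library 3 and 1913 in library 4, against 41.0 to 49.0 at day 0. The summed CPM of 8 fibroblast markers (Col1a1, Col1a2, Col3a1, Pdgfra, Postn, Lum, Dcn, Thy1) was likewise lowest in library 2, at 5985 beside 8521 to 10669 in the others, and was 121.3 to 136.4 at day 0, with 7 of 8 called higher and none at 0 in all day 0 libraries. The summed CPM of 8 smooth muscle markers was 527 in library 2 and 681 to 883 in the others, 48.8 to 61.5 at day 0, with 7 of 8 higher. Neural markers, 2 of 7 higher and 2 lower, went the other way, reaching 201 CPM in library 2 against 49.9 to 66.7 elsewhere at day 10 and 215 to 252 at day 0. Epicardial and blood marker sums were also lowest in library 2 at day 10, at 242 and 49.1 CPM. Endoderm and pluripotency marker sums were highest there, at 3593 and 220 CPM. The pluripotency sum at day 10 was mostly Klf4, at 157 ± 12.7 CPM, and Sox2, at 21.9 ± 16.5 CPM (SD, n = 4). Pou5f1, the next highest of that list, was at 2.72 ± 0.71 CPM, so the sum says little about the other pluripotency markers. For cardiomyocyte, endothelial and epithelial markers library 2 was at neither end. The part of any of these cell types in the results was not tested. All 10 genes were called in the same direction without library 2.

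Markers of the labelled states and of other cell types moved as follows. Over all tested genes, 42.7% were called higher and 39.4% lower. These shares are the background for the calls below and for the fibroblast, smooth muscle and neural calls above. All 8 pluripotency markers were lower at day 10, from a summed CPM of 3347 to 3700 down to 165 to 220. Most of the day 10 sum was Klf4, which fell only from 179 to 157 CPM on average. Of 10 cardiomyocyte markers 8 were higher, and Nkx2-5 and Nppa were not tested. Of 7 epicardial markers 7 were higher, of 8 endothelial markers 8 and of 8 blood markers 7. Of 8 endoderm markers 4 were higher with 1 lower, and of 6 epithelial markers 3 with 3 lower. Genes called higher differed in size of change: on average Krt19 went from 28.1 to 38.0 CPM and Kdr from 3.82 to 208 CPM. At day 0 Nppa, Muc16, Adgre1, Tyrobp, Hbb-y and Hba-x were at 0 in all libraries, and at day 10 no listed marker was. The levels of the 10 genes are averages over the whole culture, and which of its cells made them was not measured.

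Other genes tied by role or by name to microfibrils and elastic fibres were read from a list of 63, of which 57 could be tested. Of these 57, 49 were higher and 4 lower (edgeR, adjusted p under 0.05), and 43 were higher and 2 lower by more than 2-fold, with a median log2 change of 3.53. Over all tested genes, 42.7% were called higher and 39.4% lower, and 24.1% and 17.3% by more than 2-fold, with a median of 0.06. These shares are the background for each group of the list below. Among the cross-linking enzymes all 5 were higher, from Loxl2 with a log2 change of 1.55 ± 0.13 (SE) to Lox with 7.79 ± 0.19 (SE). Lox, the enzyme that oxidises lysines of tropoelastin, stood at 0.461 to 0.627 CPM at day 0 and 98.4 to 150 CPM at day 10. Loxl2 was abundant on both days, at 383 to 628 and 1320 to 1452 CPM.

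Of the latent TGF-beta binding proteins 3 were higher and 1 lower. Ltbp1, which tethers latent TGF-beta to microfibrils, had a log2 change of 3.42 ± 0.10 (SE), and Ltbp4, which also binds fibulins, one of -0.39 ± 0.10 (SE, edgeR adjusted p = 0.00271). The size of the Ltbp4 change varied with the settings. It was -0.20 and did not pass with protein-coding transcripts only (edgeR adjusted p = 0.129), -1.09 on TPM and -1.49 with an offset for transcript length. All 3 TGF-beta ligands were higher, from Tgfb1 at 2.90 ± 0.17 (SE) to Tgfb3 at 7.53 ± 0.23 (SE). Tgfb3 stood at 0.337 to 0.627 CPM at day 0 and 69.6 to 115 CPM at day 10.

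Of the 5 other genes grouped by an Mfap name, 2 were higher and 2 lower. A shared name does not mean a shared role, so no direction for microfibrils is read from this group. Mfap4, a protein of elastic fibres, had a log2 change of 7.80 ± 0.28 (SE), from 0.0655 to 0.184 CPM at day 0 to 23.3 to 35.8 CPM at day 10. Mfap3l had a log2 change of -1.26 ± 0.14 (SE), from 14.3 to 18.9 CPM down to 5.74 to 8.11 CPM. Hmcn1, the very large fibulin-like protein hemicentin-1, was the only 1 of 3 other fibulins that could be tested, with a log2 change of 5.89 ± 0.13 (SE). All 5 EMILIN and multimerin genes were higher, from Emilin3 at 1.20 ± 0.28 (SE) to Mmrn1, which summed to 0 counts over day 0 and to 387 over day 10. Taking 3 counts over the 4 day 0 libraries as its floor, Mmrn1 was at least 110-fold higher.

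Of 9 ADAMTS and ADAMTS-like genes 8 were higher. Thsd4, an ADAMTS-like protein that promotes fibrillin-1 assembly, had a log2 change of 8.56 ± 0.22 (SE), from 0.276 to 0.488 CPM to 111 to 176 CPM. The rise of Adamtsl5, 1.02 ± 0.43 (SE, edgeR adjusted p = 0.0413), was lost in 10 of 16 alternatives. These were the removal of any single library other than day 10 library 2 (edgeR adjusted p up to 0.120), the replicate block (0.92, edgeR adjusted p = 0.0801), TPM (0.34, limma adjusted p = 0.640) and an offset for transcript length (0.29, edgeR adjusted p = 0.717). All 8 integrin subunits were higher, from Itga5 of the fibronectin receptor at 0.42 ± 0.07 (SE) to Itga8 at 5.81 ± 0.22 (SE). All 5 matrix partners were higher, from Hspg2 (perlecan) at 0.54 ± 0.07 (SE) to Dcn (decorin), also in the fibroblast list, at 10.33 ± 0.39 (SE). With the trend on gene length removed, 3 of the 49 fell below 0, namely Itga5 at -0.13, Hspg2 at -0.59 and Mfap3 at -0.12; Mfap3 is named because of that change. The same correction moved other named genes by over 1.5 times but kept their direction, to 2.68 for Ltbp1, 4.73 for Hmcn1, 7.17 for Lox, 0.94 for Loxl2, 7.80 for Thsd4, 4.11 for Pcsk5 and -1.94 for Mfap3l. On TPM Thsd4 was at 7.64.

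Among the processing genes, 4 of 6 were higher and 1 was lower. The proprotein convertases moved apart, with Pcsk5 at a log2 change of 4.74 ± 0.15 (SE) and Pcsk6 at -3.18 ± 0.13 (SE). Pcsk6 stood at 42.0 to 50.8 CPM at day 0 and 4.04 to 5.99 CPM at day 10. Of the elastin-degrading proteases 5 of 6 tested were higher, from Mmp14, a membrane-bound metalloproteinase, at 2.11 ± 0.09 (SE) to Ctsk, which encodes cathepsin K. Ctsk summed to 0 counts over day 0 and to 663 over day 10, which by the same floor is at least 189-fold higher.

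**Figure D5:**
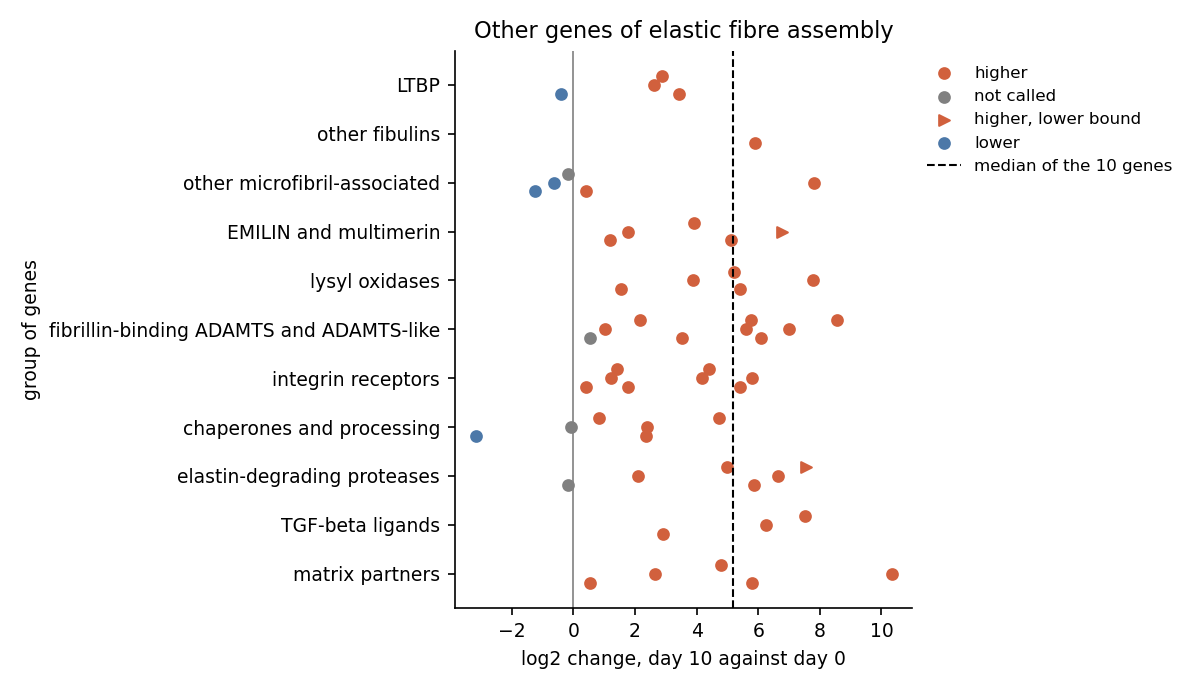
Log2 change, day 10 against day 0, of the 57 tested genes tied by role or by name to elastic fibres, by group. Genes called higher are in orange, called lower in blue and not called in grey. Triangles mark the 2 genes at 0 counts on day 0, plotted at their lower bound. The dashed line at 5.17 is the median of the 10 family genes. Orange points fill most groups (49 of 57), and the 4 blue points lie in the LTBP, microfibril-associated and processing groups.

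The genes whose values over the 8 libraries lay closest to those of Eln, by Euclidean distance of log2(CPM + 1), were Kcnk3 (0.424), Neurl3 (0.434) and Lrfn5 (0.458). Kcnk3, a potassium channel gene, stood at 0.151 CPM at day 0 and 10.2 CPM at day 10. Closest to Fbn1 were Jun (0.809), Col5a1 (0.929) and Cdh2 (1.24), which encode a transcription factor of the AP-1 family, a fibrillar collagen chain and N-cadherin. Col5a1 stood at 10.1 ± 0.89 and 699 ± 146 CPM (SD, n = 4), beside 13.7 ± 1.68 and 660 ± 110 CPM for Fbn1. The distance reflects level and change alike over only 8 libraries.

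RefSeq promoters were used for 7 of the 10 genes, taken as the 250 bases before the start nearest to that of the most abundant transcript. Eln and Mfap5 had no entry, and Fbn2 was left out by choice, so the tallies below do not cover it. The windows of Efemp1 and Fbln5 are shown because both genes rose, their windows hold at most 1 base of a GENCODE M21 exon, and they differ in motif content. Capitals mark matches on either strand to the GC box GGGCGG, the TATA box TATAAA, the AP-1 motif TGANTCA, the TEAD motif GGAATG, the SMAD motif CAGACA or the E-box CAGCTG. The build is GRCm38.p6, at chr11:28852955-28853204 on the plus strand for Efemp1 and chr12:101818485-101818734 on the minus strand for Fbln5.
Efemp1: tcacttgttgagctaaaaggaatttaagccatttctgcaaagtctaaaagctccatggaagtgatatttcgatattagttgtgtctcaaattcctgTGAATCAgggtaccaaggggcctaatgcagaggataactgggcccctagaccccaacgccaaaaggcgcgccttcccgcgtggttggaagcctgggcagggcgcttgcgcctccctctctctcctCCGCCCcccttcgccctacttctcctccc
Fbln5: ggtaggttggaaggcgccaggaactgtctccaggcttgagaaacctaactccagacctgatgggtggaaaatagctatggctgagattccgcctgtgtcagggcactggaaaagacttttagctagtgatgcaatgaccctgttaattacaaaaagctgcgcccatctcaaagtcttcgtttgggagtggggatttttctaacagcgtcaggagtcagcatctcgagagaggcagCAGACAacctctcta

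The Efemp1 window held 1 GC box and 1 AP-1 match, and the Fbln5 window held 1 SMAD match and no GC box. Over the 7 genes, 6 windows held a GC box, beside 32.7% of all 32851 promoter windows of the same length. Of these 6, the windows of Fbn1 and Fbln2 lay wholly within GENCODE M21 exons. Those of Mfap2, Fbln1 and Efemp2 held 96, 59 and 16 exon bases. The 6 windows with a GC box were 53.6 to 75.6% G and C, beside a median of 52.4% over all windows. The AP-1 motif was in 1 of 7 windows and in 6.75% of all, the SMAD motif in 2 of 7 and in 17.1% of all, and the E-box in 1 of 7 and in 13.0% of all. No window of the 7 held TATAAA, present in 12.4% of all, or the TEAD motif, present in 12.6%. These matches describe letters in the windows and were not tested.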

How the data were processed

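Per the file headers, the deposited table of each library gives length, effective length, estimated count and TPM for 126126 transcripts. The deposited estimated counts are unscaled and include values shared out between transcripts. The deposited TPM were corrected for effective length and library total. Quantification used kallisto, version 1 per the submitters' processing notes, which also name DESeq2. Neither the transcript reference nor the build is stated there. The kit, per the labels' protocols, takes total RNA and removes ribosomal RNA.

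Transcripts were matched by identifier without version to GENCODE M21 (117992, 93.55%). Unmatched transcripts, 1.15 to 1.23% of counts, were left out. Counts were summed per gene, rounded and tested over all 15097 genes left by filterByExpr with edgeR 4.0.16 in R 4.3.3 (TMM, robust quasi-likelihood, glmTreat for changes over 2-fold), with Benjamini-Hochberg adjustment and a threshold of 0.05. Estimated counts of near-identical sequences and overlapping genes are uncertain, since strand use is not stated. SE was taken as the size of the log2 change over the root of its F statistic. Genes varied between libraries by 12.5% (common biological coefficient of variation). Pair ratios were taken on TPM plus 0.1 in each library and averaged on the log2 scale. Pair ratios and transcript shares used two-sided exact permutation tests. Alternatives used limma 3.58.1, DESeq2 1.42.0, other scalings, filters, length corrections, pseudocounts, a replicate block and leaving out each library. The edgeR and permutation procedures were checked on simulated data. The edgeR simulation changed few genes, equally in both directions and by smaller folds than the largest found here. It thus does not cover data in which most genes differ. Floors cover counting error only.

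The genes, lists and tests were chosen with earlier results of these data known. Named genes are all 10 members, the called gene with the highest and with the lowest log2 change in each group of the list, and the 3 genes nearest to Eln and Fbn1.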

Additional observations from a re-analysis of the deposited data

Results flagged for a closer look

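In 3 of 42 groups of 4 libraries, 1 library lay far from the others by Dixon's criterion, which chance gives in about 1 of 20 groups. The log2 TPM ratio of Fbn1 to Fbn2 at day 10 was -0.91 in library 2 and -0.62, -0.57 and -0.58 in libraries 1, 3 and 4. The log2 TPM ratio of Fbln2 to Fbln1 at day 10 was -0.44 in the same library 2, beside -0.23, -0.24 and -0.23 in the others. That library also had the lowest fibroblast, smooth muscle, epicardial and blood marker sums at day 10. Its neural, endoderm and pluripotency marker sums were the highest, the last of these being mostly Klf4 and Sox2 at day 10. The share of Efemp2 TPM in Efemp2-204 at day 0 was 23.5% in library 1 and 73.1, 69.6 and 72.1% in libraries 2 to 4, on 54 Efemp2 counts in that library.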

How the results depend on the processing

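The 10 calls and their directions held under the 17 alternatives to the edgeR fit, except that with protein-coding transcripts only, an alternative chosen after seeing the data, Mfap5 was not tested and 9 were called. Between 51 and 56 listed pathway genes were called, against 53. With the trend on gene length removed Itga5 was at -0.13 and Hspg2 at -0.59. The replicate numbers were treated as labels only: deviations of same-numbered libraries correlated at 0.0307 to 0.0424, each the best match of its number, which is a hint from the data. With the replicate block in edgeR all 10 genes and 52 pathway genes were called. As sign flips, the replicate block left the ratio differences at -1.94 (Fbn1/Fbn2), 7.91 (Mfap2/Mfap5), 2.75 (Fbln2/Fbln1) and 1.61 (Fbln5/Efemp2) but this exact test cannot go below p = 0.125, and each adjusted exact p was 0.15. For Fbln5/Efemp2 a pseudocount of 1 gave 0.0372. For Eln/Fbn1 a pseudocount of 0.01 gave 0.24 and one of 1 gave -2.96, and leaving out 1 library gave -1.42 to -0.85. For Efemp2/Efemp1 CPM in place of TPM gave -1.22, which passed, a pseudocount of 1 gave -0.09, and leaving out 1 library gave -1.34 to -0.89. Differences in transcript share that changed sign were, as shares of counts, 0.74 (Fbn2), -0.20 (Fbln2) and 6.67 (Efemp2) percentage points, and among coding transcripts -3.08 (Fbln2) and 1.23 (Efemp2); for Efemp2 leaving out 1 library gave -12.1 to 5.25. Apart from the sign flips, whose smallest p is above the threshold, the cause of these changes was not tested. Depth limits Eln and Mfap2 at day 0 and Mfap5 at day 10, at 0 to 5 counts per library, and batch and day cannot be told apart.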
